A study of Mus musculus with 20 samples.

Results

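The regions described here are the stretches of open chromatin within 10 Mb of Kdm6b in mouse hematopoietic stem cells (HSCs), on chromosome 11 from 59.4 to 79.4 Mb (mm10). They were found by merging the peaks of 6 ATAC-seq lists wherever peaks overlapped by at least 1 bp and keeping the merged regions inside these limits. This gave 1863 regions, against 7499 on the rest of chromosome 11 and 149774 in the genome as a whole, and no region crossed a limit. Their presence was compared between the libraries by title, and set beside the RNA of 585 counted genes whose spans lie wholly inside the same 20 Mb.

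ATAC-seq cuts and tags accessible DNA with a transposase, so that peaks mark promoters of genes in use, enhancers and other sites that are free of tightly packed nucleosomes. Kdm6b encodes a demethylase that removes methyl groups from lysine 27 of histone H3, a mark laid down by Polycomb repressive complex 2 at silent genes. A gene that is altered by a floxed allele is inherited together with its chromosomal neighbours, and the 20 Mb around Kdm6b hold, among many others, the tumour suppressor gene Trp53, the RNA polymerase II gene Polr2a, the Nlrp1 inflammasome genes, a block of skeletal muscle myosin genes and a large block of olfactory receptor genes.

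All mice were C57BL/6 by label and 8 weeks old. Those of the RNA libraries carried a Cre transgene under the Vav driver, which is active throughout blood formation, in controls and knockouts alike. RNA was measured in 3 Control libraries (Vav-CRE:Kdm6b+/+) and 3 Kdm6b-KO libraries (Vav-CRE:Kdm6bfl/fl), each from marrow that was pooled from 6 mice, 3 male and 3 female, after a sort for HSCs by the absence of lineage markers and CD48 and the presence of cKit, Sca1 and CD150. ATAC-seq was done on 10000 sorted HSCs per library in 3 libraries titled Control and 3 titled 6bKO. The genotype label of all 6 ATAC libraries reads wild-type, so these groups rest on the titles alone and the second is called the libraries titled 6bKO throughout. Nothing says which animals gave the ATAC cells, and p-values for them measure the spread between these libraries, which may be technical.

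The promoters below are printed because their regions or their RNA carry the differences described further on. Nlrp1b and Nlrp1a are neighbouring near-copies that encode sensors of the inflammasome, the protein platform that activates caspase-1. The start of Nlrp1b was open only in libraries titled Control, and that of Fbxo39, an F-box gene, had weaker peaks only in libraries titled 6bKO. Gid4 and Camkk1 had a peak at the start in all 6 lists and different RNA levels. Each sequence is the 250 bases before the annotated start, 5′ to 3′ on the gene's strand, from RefSeq (GRCm38.p6, the assembly of mm10). Capitals mark matches, on either strand, to any of 7 short motifs searched: GGGCGG (the GC box), CCAAT (the NF-Y type site), CCGGAA (the core bound by ETS factors), TGANTCA (the AP-1 type site), AGATAA (the GATA type site), TGTGGTT (the Runx type site) and CACGTG (the E-box). None of these motifs contains another, and a match is a run of letters, not a shown binding site.
Nlrp1b, minus strand, chr11:71230734-71230983: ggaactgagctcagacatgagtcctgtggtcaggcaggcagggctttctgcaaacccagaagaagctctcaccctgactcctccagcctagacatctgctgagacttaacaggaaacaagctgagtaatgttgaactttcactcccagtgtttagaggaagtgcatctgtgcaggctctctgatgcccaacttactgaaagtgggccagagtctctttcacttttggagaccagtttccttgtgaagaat
Nlrp1a, minus strand, chr11:71144705-71144954: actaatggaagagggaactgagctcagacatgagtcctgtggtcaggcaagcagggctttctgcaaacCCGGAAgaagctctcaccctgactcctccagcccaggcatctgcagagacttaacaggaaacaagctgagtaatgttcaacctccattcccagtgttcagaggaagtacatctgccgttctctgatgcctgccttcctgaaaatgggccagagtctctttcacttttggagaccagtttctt
Fbxo39, plus strand, chr11:72314194-72314443: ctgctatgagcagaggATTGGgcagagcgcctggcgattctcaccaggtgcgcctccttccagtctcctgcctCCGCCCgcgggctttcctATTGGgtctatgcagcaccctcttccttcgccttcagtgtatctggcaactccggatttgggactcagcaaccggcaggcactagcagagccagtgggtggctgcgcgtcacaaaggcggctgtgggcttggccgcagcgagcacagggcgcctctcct
Gid4, plus strand, chr11:60416895-60417144: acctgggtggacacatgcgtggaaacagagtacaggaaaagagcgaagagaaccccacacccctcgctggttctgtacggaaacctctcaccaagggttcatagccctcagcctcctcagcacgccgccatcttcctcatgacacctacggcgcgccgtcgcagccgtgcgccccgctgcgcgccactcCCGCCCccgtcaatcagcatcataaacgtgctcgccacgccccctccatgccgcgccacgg
Camkk1, plus strand, chr11:73018738-73018987: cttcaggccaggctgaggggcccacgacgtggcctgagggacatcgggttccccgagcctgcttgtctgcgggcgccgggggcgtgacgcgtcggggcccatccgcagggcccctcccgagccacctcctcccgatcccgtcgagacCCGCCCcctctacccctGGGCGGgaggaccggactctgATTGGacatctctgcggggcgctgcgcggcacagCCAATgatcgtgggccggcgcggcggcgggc

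Aligned end to end with gaps, the promoters of Nlrp1b and Nlrp1a had 219 of 250 bases in common (87.6%). By the same measure the promoter at a further annotated start of Nlrp1b, 71201456, had 58.8% in common with the first and 61.6% with that of Nlrp1a. Nlrp1b had none of the 7 motifs and Nlrp1a had 1 CCGGAA. Gid4 had 1 GC box, Camkk1 had 2 GC boxes and 2 CCAAT, and Fbxo39 had 1 GC box and 2 CCAAT.

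The depth of the RNA libraries ran from 6793873 to 13797890 gene counts for Control and from 8683106 to 19336121 for Kdm6b-KO, and the ATAC lists held 44739 to 62125 peaks in Control and 53692 to 69729 in the libraries titled 6bKO. How deeply the ATAC libraries were read is not known here, and the length of a peak list moves with depth. The sorted surface markers were present in all 6 RNA libraries, with Kit at 781.1 to 2169 CPM (counts scaled to a library size of 1e+06), Slamf1 (CD150) at 49.7 to 80.8 and Ly6a (Sca1) at 51.2 to 99.0, beside Cd48 at 4.60 to 16.7. Of the marker lists of other cells, all 6 neutrophil genes were measured, with a summed level of 1034 to 3266 CPM in Control and 85.5 to 3747 in Kdm6b-KO. The 3 mast cell and basophil genes summed to between 13.1 and 28.6 in Control, against 4.90 to 10.9 in Kdm6b-KO, and the 3 T and NK cell genes to 5.99 to 7.37 and 11.9 to 17.8. No gene of these lists was at 0 in every library, and none of those tested passed the threshold between the groups. Of the 3 T and NK cell genes only 1 was tested, and 2 were under 1 CPM in all libraries. The part of other cells in the results below was not tested.

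The regions were short and clustered at genes. They had a median width of 309 bp, from 150 to 2016 bp, and covered 711552 bp, or 3.56% of the 20 Mb. There were 93.2 regions per Mb, against 75.8 per Mb on the rest of the chromosome. Of the 1863 regions, 331 (17.8%) lay within 1 kb of an annotated gene start, 1101 lay elsewhere inside a gene and 431 (23.1%) lay between genes. On the rest of chromosome 11, 13.7% lay at a start and 33.2% between genes.

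The more lists a region was found in, the wider it was and the more often it lay at a gene start. The 924 regions seen in a single list (49.6%) had a median width of 219 bp, and 6.71% of them lay at a start. The 353 regions seen in all 6 lists (18.9%) had a median width of 650 bp, and 170 of them (48.2%) lay at a start. On the rest of the chromosome 55.6% were in a single list and 15.8% in all 6, and of the latter 43.1% lay at a start. The widest region of the 20 Mb, 2016 bp at chr11:74896276-74898291, spans the shared start of Sgsm2 and Tsr1, a gene for ribosome maturation. It was followed by the starts of Polr2a (1487 bp), P2rx1, an ATP-gated ion channel (1479 bp), Crk, a signalling adaptor (1456 bp), and the shared start of Ttc19 and Zswim7 (1436 bp). Each of these 5 had a peak in all 6 lists.

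The strength of a peak is given in the authors' lists as its fold enrichment over background. It is a value of the peak within its own list, and is used here only to describe and rank peaks. Its median over the peaks in the 20 Mb was 5.37, 5.99 and 5.38 in Control 1, 2 and 3. In the libraries titled 6bKO 1, 2 and 3 that median was 6.63, 6.52 and 7.21. A higher value at a single region under the 6bKO title therefore shows no gain by itself. Among the 353 regions in all 6 lists, the strongest by mean within-list percentile (99.2) lay at the shared start of Drc3 and Tom1l2, chr11:60352620-60353465. Its fold enrichments were 18.98, 22.82 and 22.49 in Control and 21.13, 22.58 and 22.56 in the libraries titled 6bKO. The start of Fxr2, which encodes an RNA-binding relative of the fragile X protein and was also among the 5 strongest, had 14.33, 19.57 and 22.49 in Control and 22.73, 21.13 and 23.60 in the libraries titled 6bKO. A peak in all 6 lists was the condition for entering this ranking. A region between genes, chr11:61602637-61603125, had a mean percentile of 98.8 without any gene in its span. Its nearest coding gene was Epn2, 22920 bp away.

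Open regions were unevenly spread along the 20 Mb. Counted in bins of 1 Mb, they ranged from 16 in the bin from 73400001 to 74400000 to 149 in the bin from 69400001 to 70400000, which begins at Kdm6b. The poor bin had no region in all 6 lists, 29 coding genes and no gene with enough RNA to be tested. The rich bin had 40 regions in all 6 lists, 59 coding genes and 43 tested genes. The longest stretch without any region, 468999 bp at chr11:73539891-74008889, lay among the olfactory receptor genes. Over the 20 bins the number of regions had a Pearson r of 0.540 with the number of coding genes, and the number of regions in all 6 lists had an r of 0.894 with the number of tested genes. These are descriptions over neighbouring bins of the same libraries.

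**Figure D1:**
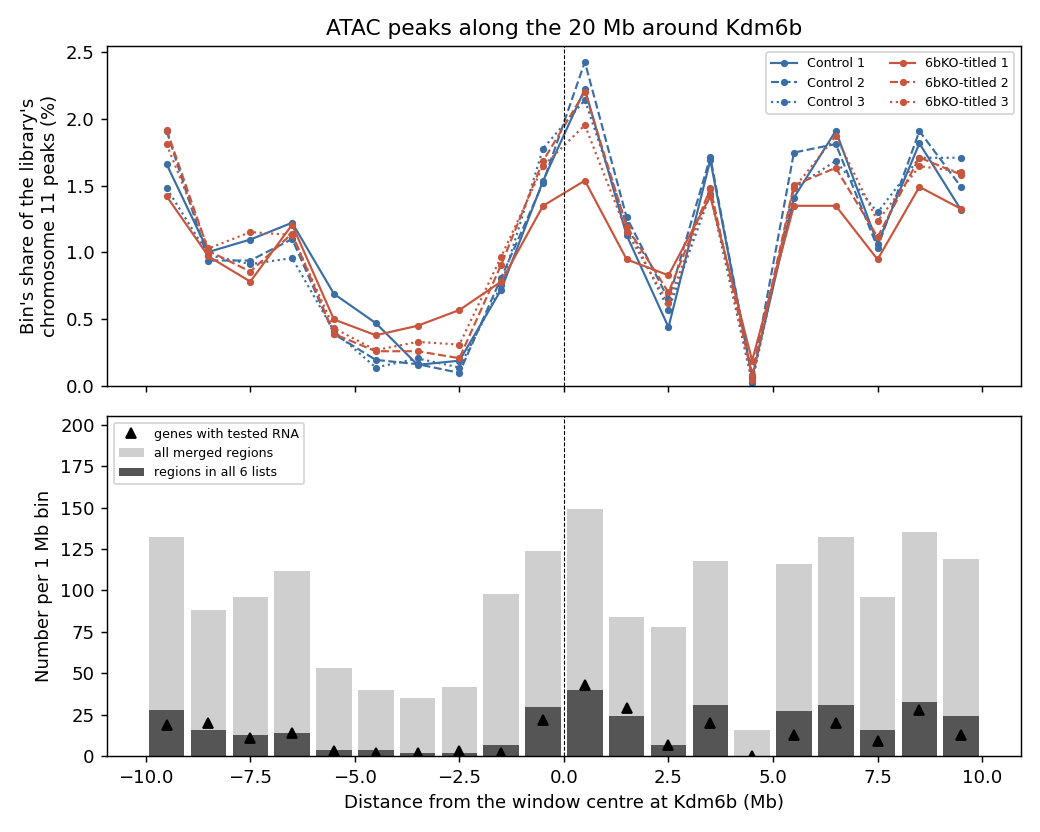
Top, share of each library's chromosome 11 peaks (percent, vertical axis) in 1 Mb bins by distance from the centre at 69.4 Mb (Mb, horizontal axis), for the 3 Control lists and the 3 lists titled 6bKO. Bottom, merged regions, regions in all 6 lists and genes with tested RNA per bin. The lists share peaks and troughs, with 149 regions in the bin that begins at Kdm6b and 16 in the olfactory receptor bin. The library titled 6bKO 1 has the lowest share in the former (1.54%).

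The 6 lists differed in length, and the groups overlapped in the share of chromosome 11 peaks that fell in the 20 Mb. This share was 21.8%, 22.2% and 21.0% in Control 1, 2 and 3 and 19.8%, 21.8% and 22.2% in the libraries titled 6bKO 1, 2 and 3. The means were 21.7% ± 0.591 and 21.3% ± 1.28 (SD, n = 3 each), and an exact two-sided permutation test gave p = 0.8 (Benjamini-Hochberg adjusted 1.00 over 4 tests). With 3 libraries against 3 the smallest p such a test can give is 0.1.

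The percentage of the 1863 regions with a peak was 36.4%, 35.9% and 48.6% in Control and 43.7%, 44.3% and 57.4% in the libraries titled 6bKO. The means were 40.3% ± 7.19 and 48.5% ± 7.75 (SD, n = 3 each), a difference of 8.16 points (exact permutation p = 0.3, adjusted 0.6), which was 3.69 points without the library titled 6bKO 3 and 12.3 without Control 3. On the rest of chromosome 11 the means were 36.5% ± 7.83 and 44.6% ± 5.24, a difference of 8.13 points (exact permutation p = 0.3). With all lists cut to the 44739 highest-ranked peaks the difference in the 20 Mb was 0.665 points. Detection in the 20 Mb minus detection on the rest of the chromosome was 3.91, 4.47 and 3.11 points in Control and -0.646, 4.76 and 7.44 in the libraries titled 6bKO. Its group means were 3.83 ± 0.684 and 3.85 ± 4.12, which differed by 0.0243 points (exact permutation p = 1.0, adjusted 1.00). The library titled 6bKO 1 stood below the other 5, and without it the difference was 2.27 points (exact permutation p = 0.1, the smallest that 3 against 2 libraries can give), and that in the share of chromosome 11 peaks 0.332 points.

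**Figure D2:**
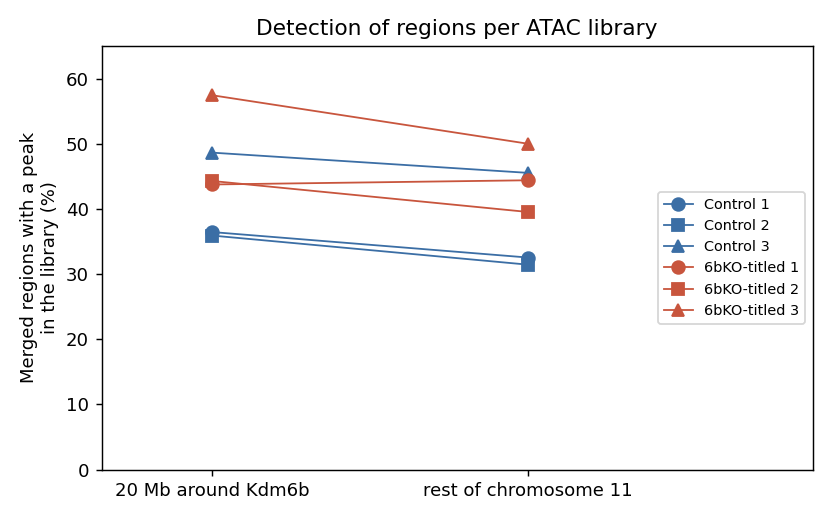
Percentage of merged regions with a peak in each ATAC library (vertical axis, from 0), in the 20 Mb around Kdm6b and on the rest of chromosome 11. Each line joins the values of 1 library. Values run from 35.9% to 57.4% in the 20 Mb, and the groups overlap in both places.

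Along the 20 Mb, 2 of the 20 bins had shares of chromosome 11 peaks that did not overlap between the titles, both higher in the libraries titled 6bKO. Across the genome 7.97% of 2308 such bins were separated in that direction and 6.07% in the other. Both bins were poor in regions. From 65400001 to 66400000 the lists held 5, 5 and 9 peaks in Control and 19, 10 and 16 in the libraries titled 6bKO. From 66400001 to 67400000 they held 6, 3 and 6 against 24, 8 and 15. Together the bins had 5 genes with tested RNA, none past the threshold.

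Regions found in all 3 libraries of a single title and in none of the other were few. In the 20 Mb, 26 regions (1.4%) had a peak in all 3 libraries titled 6bKO and in no Control library, beside 1.15% on the rest of chromosome 11 and 1.30% of all regions. In the other direction 9 regions (0.483%) had a peak in all 3 Control libraries and in none titled 6bKO, beside 0.333% on the rest of the chromosome and 0.288% of all regions. Peak lists without read counts allow no test of a single region. Both counts depend on which lists enter, and fewer lists make the condition easier to meet. The first count became 81 without the library titled 6bKO 1, 64 without Control 3 and 51 without the library titled 6bKO 2, and the second became 33 without Control 1, 23 without the library titled 6bKO 3 and 14 without Control 2. The first was 11 within 5 Mb of Kdm6b. In lists of equal length the counts were 18 and 12, or 1.33% and 0.887% of the regions, beside 1.4% and 0.775% on the rest of the chromosome.

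The 9 regions of the Control libraries all lay at or above the centre of the 20 Mb and all inside gene spans, whereas 56.0% of the 1863 regions started above the centre. Their median width was 426 bp, and 6 of the 9 had the same pattern under 4 other ways of counting peaks (a −log10 q of at least 5, lists of equal length, merging within 200 bp, and a cover of at least 25% of the region). By strength, 2 of them stood at the top of their class across the genome. The region at chr11:71251295-71251777, in the pseudogene Nlrp1c-ps, had fold enrichments of 12.11, 13.86 and 19.76 in Control 1, 2 and 3 and no peak in the libraries titled 6bKO. It ranked 1 of the 431 such regions of the genome by mean within-list percentile (95.7, where the median of the class was 43.0). The region at chr11:71230573-71231073, over the start of Nlrp1b whose promoter is printed above, had 10.60, 9.04 and 12.15 and ranked 4 of 431 (86.4). The 2 regions are neighbours in the same gene cluster.

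The other regions of this kind were weaker. Ksr1, a scaffold of the MAP kinase pathway, held one at chr11:79087921-79088688 (fold enrichments 7.04, 5.90 and 6.48), and Smg6, an endonuclease of nonsense-mediated mRNA decay, held one at chr11:75092142-75092903 (5.37, 6.30 and 8.24). Each of these genes also held a region with the opposite pattern, Ksr1 at chr11:79083146-79083861 and Smg6 at chr11:75106638-75106918. Trp53 held a weak one at chr11:69589289-69589561 (3.87, 4.81 and 3.00), and the kinase gene Mink1 one at chr11:70597305-70597730 (4.09, 5.68 and 3.42). The start shared by Tax1bp3 and Emc6 held one at chr11:73177467-73177827 (5.27, 3.26 and 3.05), and the predicted gene Gm51906 one at chr11:72587898-72588274 (5.37, 6.01 and 5.72). The last of the 9 lay inside Kdm6b itself.

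At Kdm6b, 8 regions lay within 5 kb of the gene, and 5 of them were in all 6 lists. The strongest, chr11:69417926-69419263, had fold enrichments of 9.13, 13.42 and 13.49 in Control and 14.23, 13.66 and 14.12 in the libraries titled 6bKO. The region with Control peaks alone, chr11:69401233-69401616, lay 2.72 to 3.11 kb from the lower-coordinate end of the gene, with 5.10, 4.52 and 8.04 in Control 1, 2 and 3. In the neighbouring Tmem88, chr11:69396721-69397263 had 3.06, 3.46 and 4.28 in Control and 8.51, 9.48 and 11.38 in the libraries titled 6bKO. Its within-list percentiles were 0.3, 2.4 and 37.6 in Control and 72.7, 70.9 and 73.0 in the libraries titled 6bKO, and ranks from lists of different lengths show no change by themselves. The remaining regions were chr11:69410286-69411002, in 3 Control lists and 2 titled 6bKO, and chr11:69411772-69412069, in Control 3 alone. The sources used here do not say which exons the floxed allele removes, and the place of these regions relative to the deletion was not analysed.

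**Figure D3:**
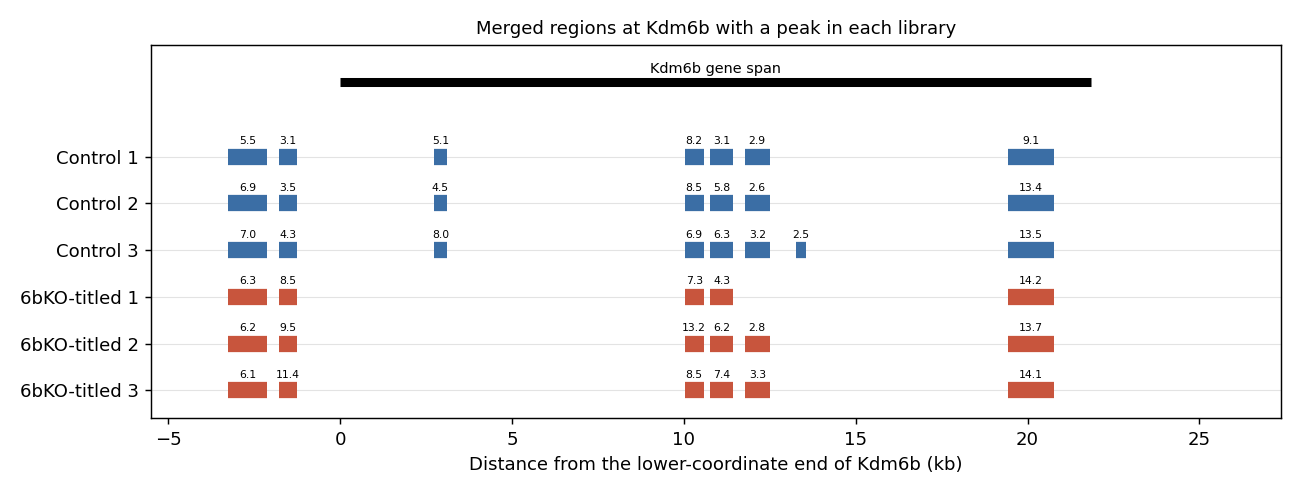
Merged regions at Kdm6b by distance from the lower-coordinate end of the gene (kb, horizontal axis), drawn in each library's row where that library had a peak. The number over each bar is the authors' fold enrichment of the highest peak there. The bar at 2.72 kb appears in the 3 Control rows and in none titled 6bKO, while 5 of the 8 regions appear in all 6 rows.

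The 26 regions of the libraries titled 6bKO were spread over the whole 20 Mb, with 12 below the centre and 14 above it. Their median width was 379 bp, 21 lay in gene spans and 13 kept their pattern under the 4 other ways of counting. The strongest, chr11:61699909-61700487 in the overlapping genes Slc5a10 and Fam83g, had fold enrichments of 7.89, 9.79 and 11.38 and ranked 168 of the 1948 such regions of the genome. The next was chr11:71782544-71783058 in Wscd1, with 6.63, 10.64 and 11.79. At gene starts, 3 were found: Fbxo39 (chr11:72314001-72314613, with 6.22, 4.01 and 6.77), Smtnl2 (chr11:72411046-72411260, with 5.43, 4.88 and 4.36) and Myo18a, an unconventional myosin (chr11:77776039-77776372, with 5.88, 5.51 and 5.94). Camkk1 held one inside the gene, at chr11:73039419-73039716, with 5.62, 5.83 and 10.36. In lists of equal length each of the 3 at gene starts had a peak in 2 libraries titled 6bKO. The region at Fbxo39 also had 2 at a −log10 q of at least 5, and ranked 1607 of the 1948.

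**Figure D4:**
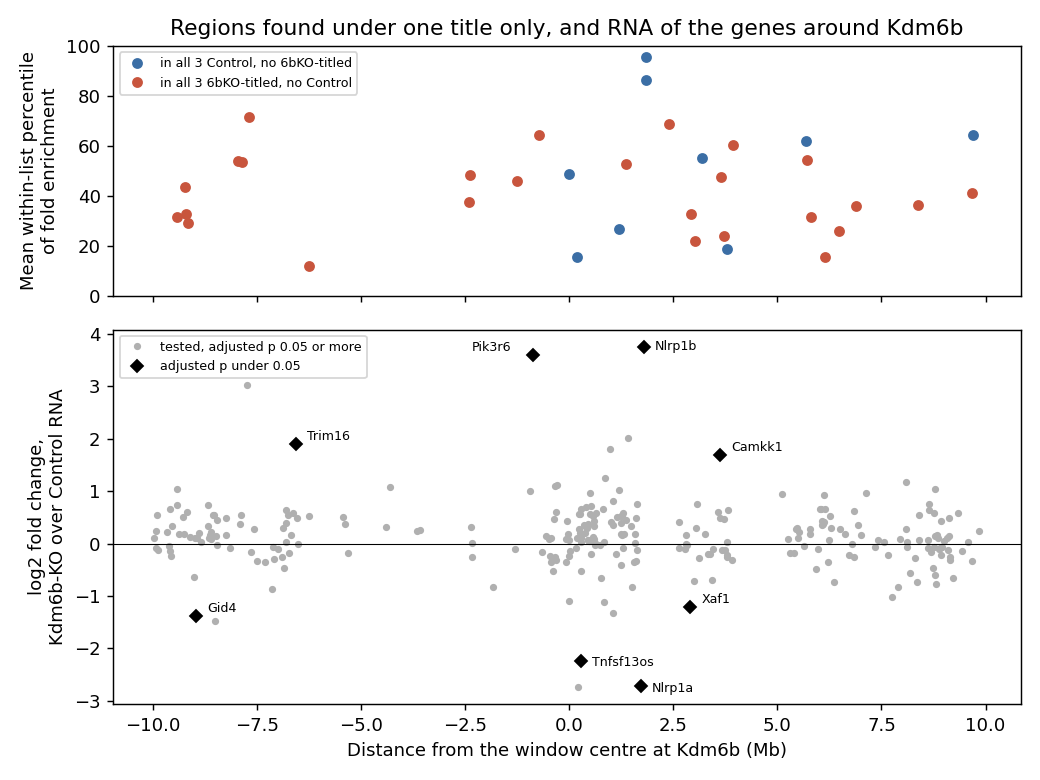
Top, the 9 regions found in all 3 Control lists and none titled 6bKO and the 26 found in all 3 lists titled 6bKO and no Control list, by distance from the centre at 69.4 Mb (Mb, horizontal axis) and mean within-list percentile of fold enrichment (vertical axis). Bottom, log2 fold change of RNA, Kdm6b-KO over Control, of the 280 tested genes of the 20 Mb. Diamonds are the 8 genes with an adjusted p under 0.05, and the 2 highest points of the top panel lie beside Nlrp1b.

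RNA of the genes in the 20 Mb was tested with edgeR on all 15185 genes with enough counts. Of the 585 genes, 280 were tested and 8 passed an adjusted p of 0.05, 4 higher and 4 lower in Kdm6b-KO. That is 2.86% of them, where 0.461% of all tested genes passed (0.244% higher and 0.217% lower), 2.26% of 841 on the rest of chromosome 11 (19 genes) and 0.256% of 12497 placed elsewhere. In bulk RNA, fewer cells of a type and less RNA per cell cannot be told apart. At an unadjusted p under 0.05 there were 55 genes (19.6%, beside 14.8% of all tested genes and 19.4% on the rest of chromosome 11). The median log2 fold change was 0.117, against -0.001 over all tested genes and 0.061 on the rest of the chromosome, and 178 of the 280 (63.6%) were above 0, against 49.9% of all. With library totals in place of TMM scaling the median over all genes moved to 0.147 and that of the 280 to 0.265. The median size of change, 0.292, was close to the 0.299 of all genes. In 54 genes every Kdm6b-KO library was above every Control library and in 17 below it, together 25.4%, where 20.5% of all tested genes and 26.0% on the rest of chromosome 11 were separated.

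The targeted gene checks the labels only in part, since counts were summed over the whole gene. Kdm6b was at 92.0, 282.5 and 220.6 CPM in Control and 142.5, 202.1 and 191.3 in Kdm6b-KO. The groups overlapped, with a log2 fold change of -0.15 (SE 0.35, edgeR adjusted p = 0.882), and it was 0.19 without Control 2. The nearest tested genes on each side gave no call either. Naa38, a subunit of an N-terminal acetyltransferase, stood at 59.0, 44.3 and 45.8 against 46.6, 37.3 and 42.4 CPM, and Tmem88, an inhibitor of Wnt signalling, at 29.3, 27.3 and 27.7 against 27.4, 24.7 and 36.1. Naa38 and Tmem88 overlap, so their reads may be mixed. Wrap53, which guides telomerase to Cajal bodies, stood at 30.3, 29.4 and 31.5 against 24.4, 27 and 34.7, and Trp53 at 494.1, 359.3 and 428.8 against 473.3, 405.0 and 496.1. In both of the latter the groups overlapped.

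Nlrp1b rose in Kdm6b-KO. Its RNA was at 0.307, 1.4 and 0.950 CPM in Control and 13.8, 9.37 and 14.0 in Kdm6b-KO, 26 counts in all against 528. Every Kdm6b-KO library was above every Control library, with a log2 fold change of 3.76 (SE 0.46, edgeR adjusted p = 8.34e-04). Its neighbour Nlrp1a changed in the opposite direction, from 2.46, 3.94 and 7.53 CPM to 0.787, 0.436 and 0.841, a log2 fold change of -2.72 (SE 0.57, edgeR adjusted p = 0.0486). The Nlrp1c-ps pseudogene had no count in any Control library and 2, 5 and 11 in Kdm6b-KO 1, 2 and 3, too few to be tested. These genes are near-copies and Nlrp1b overlaps Nlrp1c-ps, so reads could be split between them by the counting, and their single values are uncertain.

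Peaks and RNA of these genes did not go in the same direction. The start of Nlrp1b had a peak in the 3 Control lists and in none titled 6bKO, while its RNA was higher in Kdm6b-KO. A further annotated start of Nlrp1b, at 71201456, had no peak in any list, and the only other region in the gene, chr11:71164190-71164443, was in Control 3 alone. The start of Nlrp1a, whose RNA was lower in Kdm6b-KO, had a peak in all 6 lists (chr11:71144493-71145100), with fold enrichments of 10.03, 10.64 and 10.57 in Control and 7.62, 11.80 and 15.66 in the libraries titled 6bKO. How ATAC reads from these near-copies were placed was not examined, so the presence or absence of single peaks there is uncertain too. The labels do not tie the ATAC libraries to the RNA libraries, so they are not paired here.

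The 3 other genes that rose were Pik3r6, Trim16 and Camkk1. Pik3r6, a regulatory subunit of phosphoinositide 3-kinase gamma, was at 0.154, 0.508 and 0.877 CPM in Control and 10.6, 6.21 and 4.16 in Kdm6b-KO, 17 counts against 262 (log2 fold change 3.60, SE 0.58, edgeR adjusted p = 0.00840). It had 9 regions within 5 kb, none of them in all 6 lists, 4 in more libraries titled 6bKO and 3 in more Control libraries. Trim16, a tripartite motif protein, was at 11.8, 10.5 and 13.4 against 36.4, 52.9 and 44.9 CPM (log2 fold change 1.9, SE 0.24, edgeR adjusted p = 0.00114). Its main region, chr11:62820014-62821434 at the lower end of the gene, was in all 6 lists. Camkk1, a kinase that activates calcium and calmodulin dependent kinases, was at 5.07, 8.13 and 10.1 against 17.1, 23.8 and 35.0 CPM (log2 fold change 1.69, SE 0.33, edgeR adjusted p = 0.0353). Its start, printed above, was open in all 6 lists (chr11:73018647-73019761), and of the 4 genes that rose it alone held a region found in all 3 libraries titled 6bKO and in no Control library. Camkk1 overlaps 4732414G09Rik, and their reads may be mixed.

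The 3 other genes that fell were Gid4, Xaf1 and Tnfsf13os. Gid4, the substrate receptor of a multi-subunit ubiquitin ligase, was at 144.8, 206.7 and 130.4 CPM in Control and 53.9, 65.1 and 66.3 in Kdm6b-KO (log2 fold change -1.38, SE 0.21, edgeR adjusted p = 0.00705). Its start, which it shares with the overlapping Atpaf2, was open in all 6 lists (chr11:60416783-60417989). Xaf1, an interferon-inducible partner of the apoptosis inhibitor XIAP, was at 75.4, 64.8 and 69.0 against 30.7, 32.8 and 27.2 CPM (log2 fold change -1.21, SE 0.19, edgeR adjusted p = 0.00840). Its start was open in all 6 lists (chr11:72301239-72302050), with fold enrichments of 10.88, 4.96 and 7.94 in Control and 19.34, 12.30 and 12.11 in the libraries titled 6bKO. The within-list percentiles overlapped, at 92.3, 36.4 and 73.5 in Control and 98.3, 82.8 and 76.0 in the libraries titled 6bKO. The next gene, Fbxo39, whose start was open only under the 6bKO title, had 2 counts over the Control libraries and 3 over the Kdm6b-KO libraries. Tnfsf13os, a transcript from the strand opposite the cytokine gene Tnfsf13, was at 19.0, 8.13 and 16.1 against 2.19, 3.27 and 3.61 CPM (log2 fold change -2.24, SE 0.38, edgeR adjusted p = 0.0136). It overlaps 4 other genes, among them Senp3 and Tnfsf13, and since the strand setting of the counting is not given, its reads cannot be told apart from theirs.

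**Figure D5:**
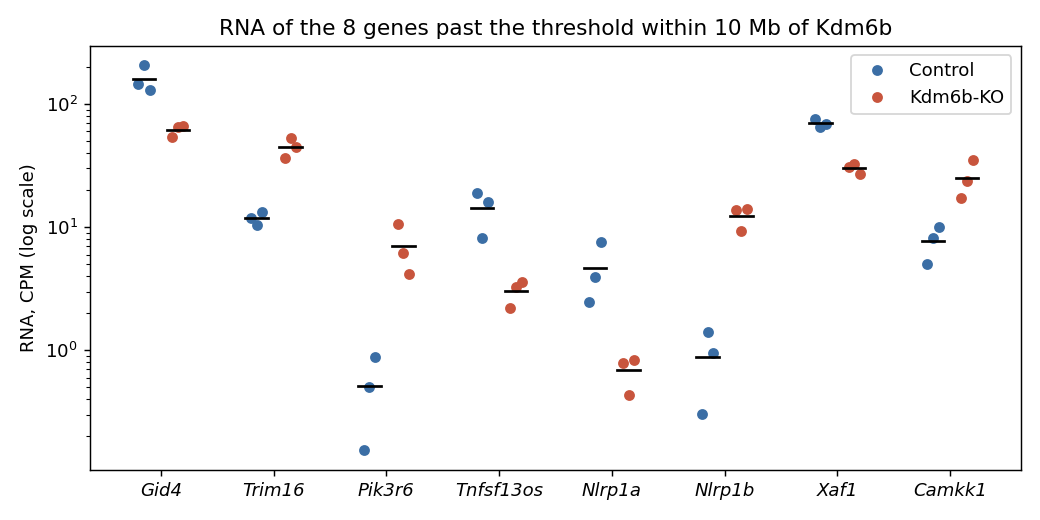
RNA in CPM (vertical axis, log scale) of the 8 genes past the threshold, in order along the chromosome, for 3 Control and 3 Kdm6b-KO libraries. Points are libraries and bars are group means. In each of the 8 genes the groups do not overlap.

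Nlrp1b and Trim16 stayed past the threshold under all 13 alternatives run on single genes, and leaving out 1 library ended most of the other calls. Without Kdm6b-KO 2 the edgeR adjusted p was 0.0672 for Gid4, 0.0700 for Xaf1, 0.107 for Tnfsf13os, 0.155 for Camkk1 and 0.224 for Nlrp1a. Without Kdm6b-KO 3 it was 0.0650, 0.104, 0.105, 0.304 and 0.239 for the same genes. Nlrp1a also missed the threshold without Control 2 (0.0935), Control 3 (0.157) or Kdm6b-KO 1 (0.0847), and Camkk1 without Control 2 (0.109). With limma-voom it was 0.102 for Pik3r6, 0.0582 for Tnfsf13os, 0.101 for Camkk1 and 0.108 for Nlrp1a. Over the whole 20 Mb, 3 genes passed without Kdm6b-KO 2 (1.05%, beside 0.151% of all tested genes) and 3 without Kdm6b-KO 3 (1.06%, beside 0.129%). Without Control 1, 15 passed (5.19%, beside 3.22%).

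The share of all gene counts that came from genes of the 20 Mb was 1.854%, 1.803% and 1.879% in the Control libraries, against 1.876%, 1.928% and 2.138% in the Kdm6b-KO libraries. The means were 1.85% ± 0.0387 and 1.98% ± 0.139 (SD, n = 3 each), the groups overlapped, and an exact permutation test gave p = 0.2 (adjusted 0.6). The difference of 0.135 points was 0.0565 without Kdm6b-KO 3. In steps of 2 Mb, 3 of 72 tested genes passed from 0 to 2 Mb above the centre and 2 of 27 from 2 to 4 Mb, and none of the 13, 29 and 41 tested genes of the 3 steps from 4 to 10 Mb above it passed. Below the centre, 1 of 24 passed within 2 Mb, and none of the 5 and 5 in the steps from 2 to 6 Mb. Farther below, 1 of 25 passed from 6 to 8 Mb and 1 of 39 from 8 to 10 Mb.

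Genes with an open start were mostly expressed. Of the 241 genes with a peak within 1 kb of the start in all 6 lists, 85.9% had enough counts to be tested. Of the 130 with such a peak in 1 to 5 lists it was 40.8%, and of the 214 without one it was 9.35%. Starts were known for 365 genes, and for the other 220 either end of the gene was used. Among the 207 tested genes with a start open in all 6 lists 6 were called, 2 higher and 4 lower, with a median log2 fold change of 0.095. The 23 tested genes with a start peak in more libraries titled 6bKO had no call and a median of 0.208. The 22 with one in more Control libraries had 2 calls, both higher, and a median of 0.377. Those 2 were Nlrp1b and Pik3r6, the latter through a peak in 1 Control list at an end not known to be its start. Over all 280 tested genes 2.86% were called, and 0.461% over all tested genes of the table.

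Of the 8 called genes, 3 lay near a region that separated the titles completely. Within 5 kb of the 26 regions with a peak in all 3 libraries titled 6bKO and in no Control library lay 21 tested genes, of which 2 were called (Camkk1 higher and Xaf1 lower in Kdm6b-KO), with a median log2 fold change of 0.28 and 15 above 0. Within 5 kb of the 9 with the opposite pattern lay 10 tested genes, of which 1 was called (Nlrp1b, higher), with a median of -0.01. Over all 280 tested genes 2.86% were called, 0.461% over all tested genes of the table, and the median of the 280 was 0.117.

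Promoters of the 20 Mb differed in sequence by whether they were open. In windows from 250 bases before to 50 after the start, the 201 promoters with a peak in all 6 lists had a median GC content of 62.3% and a CpG ratio (observed over expected) of 0.817, and the 237 without any peak had 49.7% and 0.209. The GC box GGGCGG was in 73.6% of the first and 16.5% of the second, where 35.7% of all 32851 promoters of the table held it. The ETS core CCGGAA was in 34.8% and 5.91% (14.9% of all), and the GATA type AGATAA in 2.49% and 18.6% (11.2% of all). Neither annotated start of Nlrp1b was of the CpG-rich kind, with GC contents of 49.3% and 43.0% and no CpG, while that of Gid4 had 63.3% and a ratio of 1.02. The start of Nlrp1a, open in all 6 lists, had a GC content of 51.3% and a ratio of 0.101.

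By role, of 27 listed genes for p53 and the gene expression machinery 26 were tested and 25 had a start peak in all 6 lists, where 207 of the 280 tested genes had one. None of the 26 was called, where 2.86% of the 280 genes and 0.461% of all tested genes were. Eif5a, a translation factor, was at 695.6, 955.8 and 953.0 CPM in Control and 771.7, 911.9 and 1033 in Kdm6b-KO. Of 14 listed genes for proteostasis and metabolism, all were tested and none was called. The called gene Gid4, part of a ubiquitin ligase, was not on this list. Ubb, a polyubiquitin gene, was at 768.6 CPM ± 166.1 in Kdm6b-KO and 1062 ± 219.1 in Control (SD, n = 3 each). Alkbh5, a demethylase of N6-methyladenosine in RNA, was at 109.8, 497.1 and 400.2 CPM in Control and 293.6, 377.0 and 363.6 in Kdm6b-KO, so that Control 1 alone stood apart.

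The calls among listed genes fell in the signalling and immune lists. All lists by role were chosen with earlier results of these data known, so their shares cannot measure an enrichment, and none was tested. Over all tested genes 0.461% were called and 14.8% had an unadjusted p under 0.05, and among the 280 genes 2.86% and 19.6%. Of 17 tested kinase and adaptor genes, Camkk1 alone was called, and 10 had an unadjusted p under 0.05, with a median log2 fold change of 0.25. Of 14 tested immune genes, Nlrp1b was higher and Nlrp1a lower, and 8 had an unadjusted p under 0.05, with a median of 0.48. Among the others of the immune list, Acap1, a regulator of Arf6 traffic, was at 119.8, 143.1 and 209.0 CPM in Control and 282.9, 303.7 and 329.2 in Kdm6b-KO (edgeR adjusted p = 0.0787). The clock gene Per1 was at 4.30, 4.70 and 4.53 against 10.1, 9.92 and 9.50 CPM, with a log2 fold change of 1.12 (SE 0.32). Its groups did not overlap, but its edgeR adjusted p was 0.132. Over all the lists 73 genes were tested and 3 called. The called genes Gid4, Trim16, Pik3r6, Xaf1 and Tnfsf13os were on none of the lists, so the lists leave out most of the calls.

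Of 16 listed genes restricted to other tissues, 10 had no start peak in any list and 1 had it in all 6, beside 214 and 241 of the 585 counted genes. The only tested gene of these was Aspa, an enzyme of N-acetylaspartate breakdown, at 15.1, 11.7 and 12.8 CPM in Control and 12.3, 10.8 and 8.51 in Kdm6b-KO. A region found in all 3 libraries titled 6bKO and in no Control library lay in Aspa, chr11:73326442-73326929, with fold enrichments of 8.02, 6.82 and 8.59. None of the 47 olfactory receptor genes had a region in its span or enough counts to be tested, and 18 had no count in any library. Of the 7 myosin heavy chain genes, 4 held a region and 1 was tested. The tested gene was Myh10, which was not on the list of genes restricted to other tissues. Its RNA was at 26.9, 30.1 and 30.0 CPM in Control and 19.6, 28.9 and 29.7 in Kdm6b-KO.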

How the data were processed

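The RNA was deposited as read counts per gene, whole numbers under Ensembl identifiers, in a file for each library. The submitters' processing notes name STAR 2.0.4, featureCounts 1.4.5, HTSeq 0.8.0 and Partek 6.6, without saying which step each served. Closing rows for unassigned reads, 80.27% to 83.54% of each file, were left out. No source used here states the strand setting. For ATAC, a peak list was deposited for each library, and the same notes name cutadapt 1.16, BWA 0.7.16a and MACS2. The lists give the authors' fold enrichment, a ratio, and p and q as −log10 values, with q of at least 2.00.

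A region was counted in a library that had a peak in it. Genes and gene starts were placed with RefSeq (GRCm38.p6) by symbol or unique synonym, which covered 89.7% of tested and 84.3% of called genes. Differences in RNA were tested with edgeR 4.0.16 under R 4.3.3 (filterByExpr, TMM, robust quasi-likelihood fit on genotype, Benjamini-Hochberg over all tested genes, threshold 0.05). A positive log2 fold change means more RNA in Kdm6b-KO, and CPM use TMM-scaled library sizes. Shares were compared with exact permutation tests over libraries. Both steps were tested on simulated data first. RNA replicates differed by more than sampling noise, with a chi-square per degree of freedom of at least 14.75 for each pair.

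Alternatives were other normalizations, tests, count filters, peak thresholds, merging rules, window sizes and each library left out. Named genes are Kdm6b, its 2 nearest tested genes on each side, all called genes of the 20 Mb, and from each list its called genes or, with none called, its 2 of highest mean CPM. Acap1, Nlrp1c-ps, Fbxo39 and the genes of the closing observations were chosen after their values were seen. The members and lists were chosen with earlier results of these data known. The other 8 of the 20 samples were not analysed here.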

Additional observations from a re-analysis of the deposited data

How the results depend on the processing

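The number of called genes in the 20 Mb was 8 in the reported fit, 18 with DESeq2 1.42.0, 19 without a filter on low counts and 4 with limma-voom (limma 3.58.1), and ranged from 3 to 15 with 1 library left out. The share of calls over all tested genes moved too. In the reported fit 2.86% passed in the 20 Mb, beside 0.461% of all. With DESeq2 it was 6.43% beside 3.07%, without the filter 3.83% beside 1.68%, and with limma-voom 1.43% beside 0.277%. With DESeq2 and without the filter the same 8 genes were among the calls, and the share of calls that were higher rose from 50.0% to 61.1% and 68.4%. It was 63.6% with library totals, and Per1 passed with DESeq2 (adjusted p = 0.0416, with 0.0416 to 0.388 over its alternatives). The difference in detection became 0.665 points in lists of equal length. Regions found only under the 6bKO title, 26 as reported, numbered 11 within 5 Mb of Kdm6b and ranged from 30 to 81 with 1 list left out. Those found only in Control were 9 as reported (0.483%) and ranged from 10 to 33 with 1 list left out. Within 5 Mb of Kdm6b they numbered 7, a larger share (0.893%). Of the tested genes, 73.9% had a start peak in all 6 lists within 1 kb and 83.9% within 5 kb. Signs turned for genes whose log2 fold change was near 0. With library totals Kdm6b was at 0.01 and Wrap53 at 0.07. With 1 library left out the range was -0.49 to 0.19 for Kdm6b (0.19 without Control 2), -0.24 to 0.03 for Wrap53, -0.38 to 0.43 for Alkbh5 (also -0.03 without Kdm6b-KO 2 and -0.00369 without Kdm6b-KO 3), -0.11 to 0.18 for Tmem88, -0.01 to 0.22 for Trp53 and -0.07 to 0.17 for Eif5a (also -0.05 without Kdm6b-KO 3). The causes were not tested. The 2 shares of peaks and of counts, and detection minus the rest of the chromosome, moved by less than the spread between replicates in every alternative run.

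Replicate numbers were not used as pairs in the reported results. Correlations of same-numbered deviations were 0.0324, 0.161 and -0.127 for RNA and 0.0808, 0.00786 and 0.114 for ATAC. Those of different numbers ran from -0.199 to 0.126 for RNA and from -0.109 to 0.0278 for ATAC. Values this small do not settle whether the numbers pair the samples. With the number as a replicate block 8 genes were called (2.86%, beside 0.580% of all tested genes), 5 higher and 3 lower. Of these, 7 were called as before, and the edgeR adjusted p of Nlrp1a was 0.0676. ATAC depth is unknown, which limits what the absence of a peak shows.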

Other observations

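Further genes of the 20 Mb had RNA groups that did not overlap without passing the threshold, and are given as values, each with its edgeR adjusted p in parentheses. They were chosen after their values were seen. Grap, an adaptor of receptor signalling in lymphocytes, was at 0.768, 0.127 and 1.17 CPM in Control and 4.46, 2.83 and 10.5 in Kdm6b-KO (0.0726), and Scimp, a membrane adaptor of immune cells, at 0.921, 0.254 and 1.46 against 3.76, 2.29 and 5.05 (0.156). Git1, a GTPase-activating protein for Arf proteins, was at 14.3, 13.7 and 17.1 against 22.5, 38.2 and 40.7 CPM (0.0754). Scarf1, a scavenger receptor, was at 43.2, 64.0 and 89.1 against 106.4, 121.9 and 143.4 CPM (0.118). Ywhae, a 14-3-3 protein and the most abundant RNA of these, was lower in each Kdm6b-KO library, at 2654, 2071 and 1884 CPM in Control and 1348, 1261 and 1343 in Kdm6b-KO (0.169). Atp1b2, a sodium pump subunit, was at 3.07, 11.6 and 11 against 2.97, 0.327 and 0.594 CPM (0.167). The start of Mink1 had a peak in 3 Control libraries and 2 titled 6bKO, and its RNA was at 13.5, 12.1 and 12.9 against 20.5, 28.1 and 29.9 CPM (0.1).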
